A study of Mus musculus with 12 samples.

Results

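The genes of triglyceride synthesis and glycerol handling were examined in the interscapular brown adipose tissue (BAT) of male mice at 10 weeks of age. They are the 10 genes *Gk*, *Gpd1*, *Gpd2*, *Gpam*, *Agpat2*, *Lpin1*, *Dgat1*, *Dgat2*, *Pck1* and *Aqp7*, taken by their symbols from the 25124 genes of the expression table. Their levels were compared over 4 groups of 3 mice, WT and *Txnip*-/- mice at room temperature (RT) and mice of both genotypes at thermoneutrality (TN). WT mice carried *Txnip* and *Txnip*-/- mice lacked it. RT mice were kept for 1 week at 23 °C, which is below the thermoneutral zone of a mouse. TN mice were kept for 1 week at 30 °C, near the temperature at which a mouse spends no extra energy on heat. The *Txnip*-/- line was held on a C57B/6J background, and all mice were on standard chow. The deletion was not restricted to BAT. Heterozygous mice were bred by crossing the line with C57B/6J mice, and inguinal white fat is described as deficient too. Other cell types and organs therefore lack *Txnip* as well. Txnip is an α-arrestin family protein that binds thioredoxin and restrains glucose uptake, and the comparison asks how its loss alters BAT at each temperature. The WT mice are described as littermates of the *Txnip*-/- mice, but which mice shared a litter is not given, so no pairing was made. The p-values weigh a difference of group means against the spread between these samples, which limma moderates with that of all genes.

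A triglyceride is built from glycerol 3-phosphate and activated fatty acids. Glycerol 3-phosphate is made from glycerol by glycerol kinase (Gk), or from dihydroxyacetone phosphate by the cytosolic dehydrogenase Gpd1. Dihydroxyacetone phosphate comes from glycolysis, or from pyruvate by glyceroneogenesis, in which Pck1 makes phosphoenolpyruvate. The mitochondrial dehydrogenase Gpd2 takes glycerol 3-phosphate the other way and feeds its electrons into the respiratory chain, and Aqp7 is the channel by which glycerol crosses the adipocyte membrane. Gpam adds the first acyl chain, Agpat2 the second, the phosphatase Lpin1 makes diacylglycerol, and Dgat1 and Dgat2 add the last acyl chain. White adipocytes have little Gk, whereas brown adipocytes in the cold make and break down triglyceride at once and express it, so that glycerol freed by lipolysis can be used again in the same cell.

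Promoters of 3 of these genes are shown because the genes behaved differently in the data described below. *Pck1* and *Gk* were lower at TN than at RT and lower in TN *Txnip*-/- than in TN WT, and *Aqp7* passed no test. The 250 bases before the start of the counted transcript come from RefSeq on build GRCm38.p6 (7 of the 10 genes have an entry there, 6 of them at the start of the counted transcript), and run 5′ to 3′ along the strand of the gene. The start of *Pck1* is preceded by chr2:173152823-173153072 on the plus strand, that of *Gk* by chrX:85776820-85777069 on the minus strand and that of *Aqp7* by chr4:41048137-41048386 on the minus strand. Capitals mark the letters of a searched motif.
Pck1: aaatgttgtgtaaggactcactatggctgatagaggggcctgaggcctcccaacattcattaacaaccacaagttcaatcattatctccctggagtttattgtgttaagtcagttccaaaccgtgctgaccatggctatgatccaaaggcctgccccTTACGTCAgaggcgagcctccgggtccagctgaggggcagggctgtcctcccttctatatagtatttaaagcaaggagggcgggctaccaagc
Gk: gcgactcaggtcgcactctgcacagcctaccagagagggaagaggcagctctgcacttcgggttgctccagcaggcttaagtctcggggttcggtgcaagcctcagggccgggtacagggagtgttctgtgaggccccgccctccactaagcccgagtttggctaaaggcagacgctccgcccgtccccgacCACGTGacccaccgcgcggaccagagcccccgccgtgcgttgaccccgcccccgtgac
Aqp7: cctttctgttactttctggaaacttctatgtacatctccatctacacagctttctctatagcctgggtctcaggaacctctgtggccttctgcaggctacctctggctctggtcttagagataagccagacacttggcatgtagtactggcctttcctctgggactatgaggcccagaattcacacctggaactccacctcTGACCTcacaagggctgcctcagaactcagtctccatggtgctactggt
Both strands were searched for the nuclear receptor half-site AGGTCA, for a pair of such half-sites 1 base apart (DR1), for the E-box CACGTG, for the cAMP response element TGACGTCA and for its variant TTACGTCA, and the half-site is also part of any DR1. *Pck1* held TTACGTCA from −93 to −86 relative to the start, a run of letters present in 0.447% of 32851 promoters of the same 250 bases. *Gk* held CACGTG from −58 to −53, present in 6.02% of them. *Aqp7* held TGACCT, the half-site read on the other strand, from −49 to −44, and the half-site was present in 14%. *Gpam*, lower at TN than at RT, also held the half-site, from −196 to −191. *Agpat2* and *Gpd2*, lower at TN than at RT as well, held none of the searched motifs. TGACGTCA, in 1.55% of all promoters, and DR1, in 0.0335%, were found in none of the entries of the 7 genes. These are matches of letters, and no binding was measured here.

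The libraries held between 29.93 and 47.44 reads in units of 1e6, and levels are given as TPM (transcripts per 1e6 transcripts), a scale corrected for length on which genes can be compared with each other. *Txnip* itself averaged 612.8 TPM in RT WT and 29.02 TPM in RT *Txnip*-/-, 1131 TPM in TN WT, against 11.98 TPM in TN *Txnip*-/-, so every library stood on the side its label gives. Defining genes of adipocytes (*Adipoq*, *Plin1*, *Fabp4*, *Lipe* and *Cidec*) summed to between 15390 and 21180 TPM over all libraries and 0 of 5 were called by genotype at either temperature. Of the genes that mark brown adipocytes (*Ucp1*, *Cidea*, *Cox7a1*, *Dio2* and *Prdm16*), 4 of 5 were lower in TN *Txnip*-/- (summed TPM 2615 to 3013 against 4295 to 4544 in TN WT) and 1 of 5 in RT *Txnip*-/- (5867 to 7627 against 7887 to 8375). Macrophage markers were higher in TN *Txnip*-/- in 6 of 6 cases, with sums of 367.1 to 517.1 against 128.3 to 229.2 TPM, and in RT *Txnip*-/- in 2 of 6, with sums of 97.06 to 162.9 against 57.43 to 65.57 TPM. Fibroblast markers were higher in TN *Txnip*-/- in 5 of 5 cases (683.5 to 701 against 303.1 to 411.8 TPM), and skeletal muscle markers in RT *Txnip*-/- in 5 of 5 tested (17.87 to 43.51 against 2.317 to 2.841 TPM). At TN, replicate 2 of both genotypes also held muscle transcripts, with a sum of 14.38 TPM in each against at most 3.329 TPM in the other TN libraries. Endothelial markers were called in 0 of 5 cases at either temperature, lymphocyte markers in 0 of the 2 and 3 tested at RT and TN, and Schwann and nerve markers were lower in 1 of 4 at each, and the hepatocyte markers, for cells that also express *Gk* and *Pck1*, summed to at most 0.388 TPM in any library. In tissue RNA, fewer cells of a type and less RNA per cell cannot be told apart.

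At TN, *Txnip*-/- BAT held less of 3 of the 10 transcripts than WT BAT, and more of none. These were *Gk*, which makes glycerol 3-phosphate from glycerol, *Pck1*, the enzyme of glyceroneogenesis, and *Dgat2*, an enzyme of the last acylation. A gene was called lower where its fold change on the scale of TPM + 1 was under 0.8, and higher where it was over the reciprocal of 0.8, if the adjusted p was also under 0.05. By this rule 2.17% of all 12891 genes tested were lower at TN and 6.49% higher. All 10 estimates were negative at TN, with a median log2 fold change of −0.27 against 0.01 over all genes, and 48.1% of all genes had a negative estimate. Of the 6 TN libraries left out in turn, 3 turned the sign of *Aqp7* and 1 that of *Gpd2*. At RT, *Dgat2* alone of the 10 genes was called, and it was lower, where 0.726% of the 11980 genes tested were lower and 0.76% higher. The estimates at RT were negative for 7 of the 10 genes, with a median of −0.18 against 0.03 over all genes, of which 40.8% had a negative estimate. Of the 6 RT libraries left out in turn, 2 turned the sign of *Aqp7* and 4 that of *Gpd1*. Without the filter on low TPM, 1 of the 10 genes (*Gk*) was called at TN and 0 at RT. All 10 genes passed the filter of a mean of 1 TPM in every comparison.

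**Figure D1:**
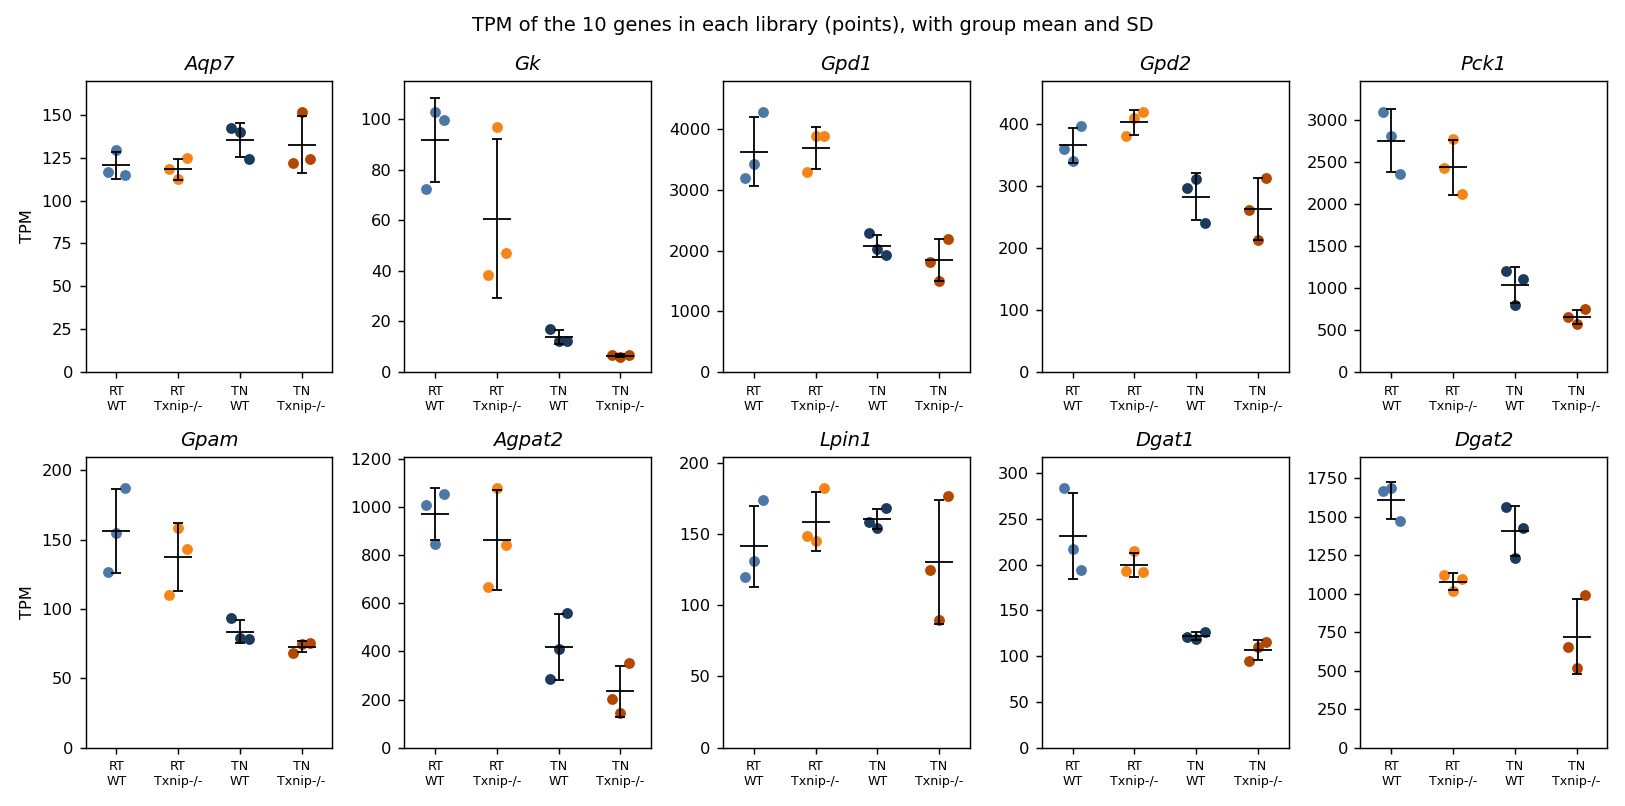
TPM of the 10 genes in each of the 12 libraries (points) by group, with the group mean and SD (horizontal lines and bars, n = 3), each panel starting at 0. *Gk* lies between 5.78 and 17.1 TPM in the TN libraries and between 38.2 and 102.8 TPM in the RT libraries, and *Dgat2* is lower in every *Txnip*-/- library than in every WT library of the same temperature.

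Glycerol entry was represented by *Aqp7*, which differed little between the groups. Its TPM were 116.8, 129.5 and 115.1 in RT WT, 118.1, 112.3 and 124.6 in RT *Txnip*-/-, 142.0, 139.7 and 124.0 in TN WT and 121.8, 151.5 and 124.1 in TN *Txnip*-/-. The genotypes overlapped at both temperatures. The log2 fold change of *Txnip*-/- over WT was −0.03 at RT (95% interval −0.18 to 0.13) and −0.03 at TN (−0.27 to 0.20), neither past the threshold (limma adjusted p = 0.901 and 0.873), and the sign of either changed with some single libraries left out.

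*Gk*, the kinase that returns glycerol to triglyceride, was the member with the clearest loss. Its TPM were 17.1, 12.3 and 12.2 in TN WT and 6.89, 5.78 and 6.82 in TN *Txnip*-/-. The groups did not overlap, and the highest *Txnip*-/- library stood well under the lowest WT library. The log2 fold change was −0.98 ± 0.13 (SE), about 0.508-fold (limma adjusted p = 0.00752), and *Gk* was called in all 14 alternatives, with adjusted p from 0.00208 to 0.0399. The alternative with no minimum fold could not lose the call. At RT, its TPM were 72.6, 102.8 and 99.9 in WT and 38.2, 96.7 and 47.2 in *Txnip*-/-. Replicate 2 of RT *Txnip*-/- was within the WT range while the other two were below it. The same library had the highest *Ucp1* of its group (3900 TPM against 2527 and 2673) and the lowest level of 6 of 6 macrophage markers (summed 97.06 TPM against 162.9 and 143.3), nearest to WT in both, and the part of these in the *Gk* difference was not tested. The RT difference of −0.69 ± 0.32 on the log2 scale missed the threshold (limma adjusted p = 0.359), and without that library it was −1.08 and still missed it (adjusted p = 0.064). With each RT library left out in turn the difference ran from −1.08 to −0.42 (limma adjusted p up to 0.593). Exons of *Gk*, chrX:85701937-85776819 on the minus strand, overlap those of the gene *Gm14764* on the other strand, and whether reads were counted by strand is not stated.

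*Pck1*, the enzyme that supplies the carbon of glyceroneogenesis, was also lower in TN *Txnip*-/-. The gene lies at chr2:173153073-173159274 on the plus strand and overlaps the exons of no other gene. Its TPM were 1200.4, 799.3 and 1113 in TN WT and 656.1, 575.2 and 744.2 in TN *Txnip*-/-. The groups did not overlap, though the lowest WT library, replicate 2, was close to the highest *Txnip*-/- library. Replicate 2, the TN library with muscle transcripts in each genotype, was the lowest of both TN groups for *Pck1* and for *Dgat2*, and the part of these transcripts was not tested. The log2 fold change was −0.64 ± 0.16 (SE), or 0.641-fold, just past the threshold (limma adjusted p = 0.0463). It missed the threshold with any one of 5 libraries left out, namely TN WT replicates 1 (adjusted p = 0.111) and 3 (0.134) and TN *Txnip*-/- replicates 1 (0.127), 2 (0.148) and 3 (0.0506), and held without TN WT replicate 2 (0.0203). It also missed it with no filter on low TPM (0.118). At RT, *Pck1* was at 3091, 2809 and 2350.4 TPM in WT and 2428, 2768 and 2114 TPM in *Txnip*-/-, with overlapping groups and a difference of −0.17 ± 0.13 on the log2 scale (limma adjusted p = 0.561).

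Neither glycerol 3-phosphate dehydrogenase was called by genotype. *Gpd1* was at 2286, 2028 and 1928 TPM in TN WT, against 1819, 1508 and 2200.3 TPM in TN *Txnip*-/-, and its 95% interval at TN ran from −0.52 to 0.14 on the log2 scale. *Gpd2* was at 297.5, 311.3 and 240.9 TPM in TN WT, against 261.6, 213.7 and 313.7 TPM in TN *Txnip*-/-, with an interval of −0.46 to 0.23. Its TN estimate of −0.12 turned to 0.02 without TN *Txnip*-/- replicate 2. Both pairs of groups overlapped. In RT WT, *Gpd1* was at 3190.4, 3431 and 4283 TPM and *Gpd2* at 359.5, 340.9 and 396.8 TPM. In RT *Txnip*-/-, *Gpd1* was at 3292, 3888 and 3883 TPM and *Gpd2* at 380.5, 410.1 and 419.4 TPM, so that both again overlapped WT. At RT, the log2 fold change was 0.03 ± 0.12 for *Gpd1* and 0.14 ± 0.07 for *Gpd2* (limma adjusted p = 0.942 and 0.392), and that of *Gpd1* turned negative under upper-quartile normalization (−0.01) and median centring (−0.0001208). Exons of *Gpd1* overlap *Gm16537*, and those of *Gpd2* overlap *A930012O16Rik*, on the other strand.

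Neither acyltransferase upstream of diacylglycerol among the 10 genes, *Gpam* or *Agpat2*, passed the threshold by genotype at either temperature. *Gpam*, the acyltransferase of the first step, was at 93.5, 79.1 and 78.7 TPM in TN WT, against 68.3, 74.5 and 75.5 TPM in TN *Txnip*-/-. These groups stood apart by a narrow gap, and the difference was −0.20 ± 0.09 on the log2 scale (limma adjusted p = 0.194). *Agpat2*, the acyltransferase whose loss in humans causes a lack of adipose tissue, was at 284.5, 409.4 and 560.5 TPM in TN WT, against 203.9, 144.9 and 353.1 TPM in TN *Txnip*-/-. Its groups overlapped through *Txnip*-/- replicate 3, and the log2 fold change of −0.88 ± 0.34 exceeded that of *Pck1* in size but had a wide spread (95% interval −1.65 to −0.10, limma adjusted p = 0.147). Without that library *Agpat2* was called (−1.22, adjusted p = 0.0428). With each TN library left out in turn its value ran from −1.22 to −0.58 (limma adjusted p up to 0.366). Exons of *Agpat2* overlap *Egfl7* on the other strand. At RT, *Gpam* differed by −0.18 ± 0.17 and *Agpat2* by −0.19 ± 0.17 on the log2 scale, both with overlapping groups (*Gpam* 126.4 to 187.3 TPM in WT and 110.4 to 158.4 TPM in *Txnip*-/-, *Agpat2* 848.3 to 1056 and 667.9 to 1079 TPM).

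*Lpin1*, the phosphatidate phosphatase that also acts with transcription factors in the nucleus, varied widely among the TN *Txnip*-/- libraries. Its TPM were 158.4, 154.4 and 168.0 in TN WT and 124.8, 89.4 and 176.5 in TN *Txnip*-/-. Replicate 3 was above all WT libraries and the other two were below them. The log2 fold change was −0.35 ± 0.21 (limma adjusted p = 0.346), and without replicate 3 it was −0.60, past the threshold (adjusted p = 0.0464). With each TN library left out in turn it ran from −0.60 to −0.11 (limma adjusted p up to 0.75). At RT, *Lpin1* was at 119.5, 131.1 and 173.7 TPM in WT and 148.6, 145.3 and 182.3 TPM in *Txnip*-/-, with overlapping groups and a difference of 0.18 ± 0.15. Replicate 3 of TN *Txnip*-/- was also the highest of its group for *Gpd1*, *Gpd2*, *Pck1*, *Gpam*, *Agpat2*, *Dgat1* and *Dgat2*. It also had the highest level of 4 of 5 brown adipocyte markers in its group, with *Ucp1* at 339.1 TPM against 255.0 and 154.0, and the lowest of 6 of 6 macrophage markers, with *Lyz2* at 252.5 TPM against 335.6 and 353.6. The part of these in its levels of the 10 genes was not tested.

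Of the enzymes of the last step, which make triglyceride from diacylglycerol, *Dgat2* was called lower at both temperatures and *Dgat1* at neither, and the difference between their changes was not tested. Dgat2 is known for using newly made fatty acids and diacylglycerol built from glycerol 3-phosphate, and Dgat1 for returning fatty acids freed by lipolysis to triglyceride. *Dgat2* lies at chr7:99153663-99182713 on the minus strand and *Dgat1* at chr15:76502012-76511994 on the minus strand (mm10), and neither overlaps the exons of another gene. *Dgat2* was at 1664, 1687 and 1469 TPM in RT WT and 1124, 1017 and 1094 TPM in RT *Txnip*-/-. In TN WT it was at 1562, 1235 and 1425 TPM and in TN *Txnip*-/- at 654.0, 517.6 and 988.6 TPM. At each temperature the highest *Txnip*-/- library was below the lowest WT library, with replicate 3 of TN *Txnip*-/- nearest to it. The log2 fold change was −0.57 ± 0.07 (SE) at RT, or 0.672-fold, and −1.01 ± 0.22 at TN, or 0.496-fold (limma adjusted p = 0.0208 and 0.0273). At RT the call was lost without RT WT replicate 1 (adjusted p = 0.0718) or 2 (0.105) and without *Txnip*-/- replicate 1 (0.0502), 2 (0.0509) or 3 (0.0845), with a log2 fold change of −0.64 to −0.53 over all libraries left out. At TN it was lost without TN WT replicate 1 (0.0755) or 3 (0.0829) and without *Txnip*-/- replicate 1 (0.0929) or 2 (0.0656). With no filter on low TPM it was lost at both temperatures (0.0628 at RT and 0.0796 at TN), and with all 12 libraries in 1 fit it was lost at RT (0.125). *Dgat1* was at 283.8, 216.6 and 194.1 TPM in RT WT, 192.8, 214.7 and 192.2 TPM in RT *Txnip*-/-, 120.7, 118.9 and 126.7 TPM in TN WT, against 94.8, 110.0 and 115.1 TPM in TN *Txnip*-/-. Its genotypes overlapped at RT and stood apart by a narrow gap at TN, where the log2 fold change was −0.20 ± 0.08 (limma adjusted p = 0.184).

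**Figure D2:**
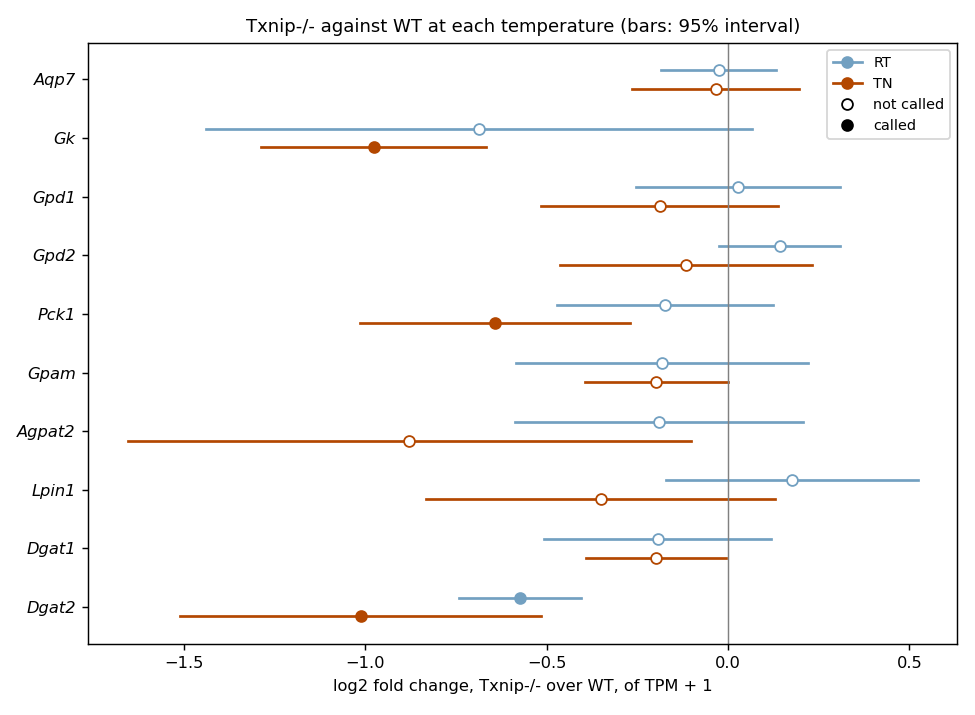
Log2 fold change of *Txnip*-/- over WT for the 10 genes at RT and TN on the scale of TPM + 1, with 95% intervals (n = 3 per group), filled where called. *Dgat2* is the one gene called at both temperatures (−0.57 and −1.01), *Gk* and *Pck1* are called at TN, and the intervals of RT and TN overlap for each gene.

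The ratio of *Dgat2* to *Dgat1* TPM, which are scaled alike within a library, separated TN WT from the rest. It was 12.9, 10.4 and 11.3 in TN WT and 6.90, 4.71 and 8.59 in TN *Txnip*-/-, without overlap, and 5.86, 7.79 and 7.57 in RT WT against 5.83, 4.73 and 5.69 in RT *Txnip*-/-, with a gap of under 1 SD between the nearest libraries. In WT the ratio was higher at TN than at RT in every library. In *Txnip*-/- the RT range of 4.73 to 5.83 lay within the TN range of 4.71 to 8.59. The ratio of *Gpd2* to *Gpd1* overlapped between genotypes at both temperatures (0.125 to 0.154 in TN WT and 0.142 to 0.144 in TN *Txnip*-/-).

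**Figure D3:**
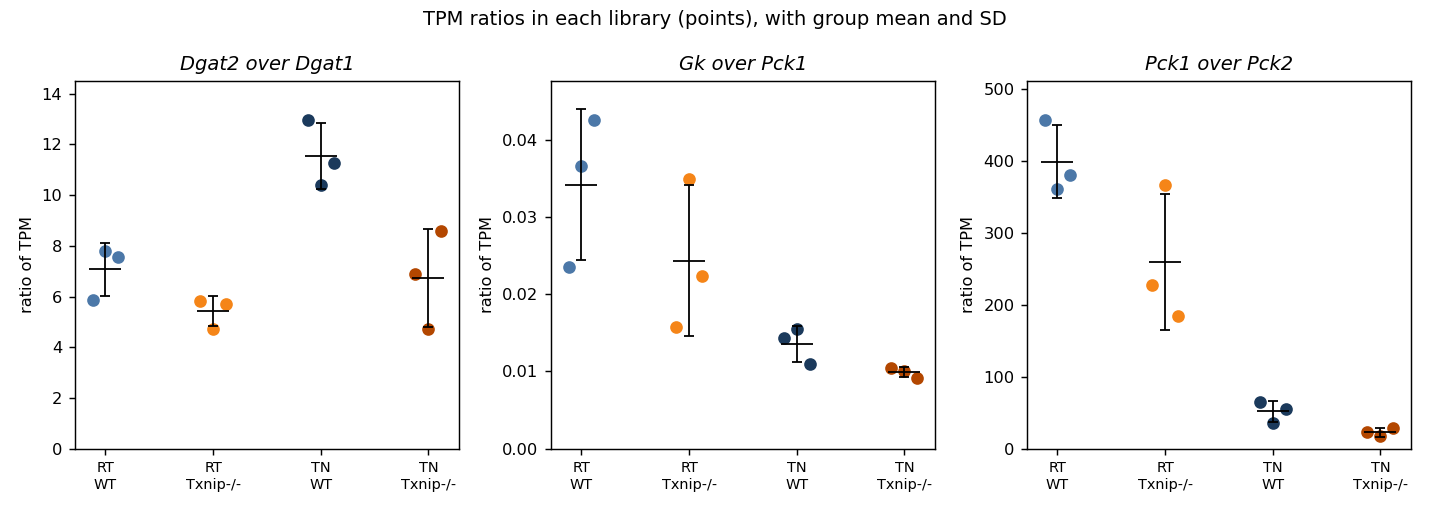
Ratios of TPM within each library (points) by group, with mean and SD (n = 3) and axes from 0. *Dgat2* over *Dgat1* is 11.5 on average in TN WT and between 5.42 and 7.07 in the other 3 groups, *Gk* over *Pck1* is 0.00991 in TN *Txnip*-/- and 0.0342 in RT WT, and *Pck1* over *Pck2* falls from 399.1 in RT WT to 23.0 in TN *Txnip*-/-.

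Most of the 10 transcripts were lower at TN than at RT in both genotypes. In WT, 7 of the 10 were called lower and none higher, where 6.39% of all 12486 genes tested were called lower and 31.4% higher. In *Txnip*-/-, 8 were lower and none higher, against 8.27% lower and 30.9% higher of all genes. The median log2 fold change of the 10 genes was −0.84 in WT and −0.90 in *Txnip*-/-, while that of all genes was 0.18 and 0.15. This shift of all genes depended on the scaling, as 83.1% of the called genes were higher in WT with TPM as deposited, 55.5% after upper-quartile normalization and 51.1% after median centring (78.9%, 56% and 48.5% in *Txnip*-/-), and the genes called lower rose from 798 of 12486 in WT to 1756 and 1841 (from 1033 to 2080 and 2435 in *Txnip*-/-). The counts of 7 and 8 of the 10 genes were the same under both. Cell type markers also differed between TN and RT. In both genotypes 6 of 6 macrophage markers and 5 of 5 fibroblast markers were higher at TN, as were 3 of 5 endothelial markers in WT and 5 of 5 in *Txnip*-/-. Of the brown adipocyte markers 3 of 5 were lower at TN in WT and 4 of 5 in *Txnip*-/-, with *Ucp1* at 0.198-fold and 0.08-fold, and of the adipocyte markers 2 of 5 in each (*Fabp4* and *Cidec* in WT, *Plin1* and *Cidec* in *Txnip*-/-). In *Txnip*-/-, 5 of 5 tested skeletal muscle markers were lower at TN as well, against 0 of 5 called in WT. Lymphocyte markers were higher at TN in 1 of 2 in WT and 2 of 2 in *Txnip*-/-, and of 4 Schwann and nerve markers 1 was lower in WT and 2 were higher in *Txnip*-/-. The part of these markers in the temperature differences of the 10 genes was not tested. The RT and TN libraries are numbered apart in the deposited tables, and whether they were prepared together is not given, so temperature and any batch that goes with it cannot be told apart.

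*Gk* had the largest temperature difference of the 10 genes, with a mean in WT of 91.7 ± 16.7 TPM at RT and 13.9 ± 2.82 TPM at TN (SD, n = 3). The log2 fold change of TN over RT was −2.64 ± 0.27 in WT and −2.93 ± 0.27 in *Txnip*-/- (limma adjusted p = 7.27e-05 and 1.82e-05), and −2.82 and −3.12 relative to the median of all genes. *Pck1* changed by −1.42 ± 0.16 in WT and −1.89 ± 0.16 in *Txnip*-/-, and *Agpat2* by −1.26 ± 0.31 and −1.95 ± 0.31. *Gpd1*, *Gpam* and *Dgat1* formed a middle group, with −0.80, −0.88 and −0.90 in WT and −1.01, −0.89 and −0.90 in *Txnip*-/-. For all of these the RT and TN libraries of a genotype did not overlap, and each call held in all 19 alternatives. Among the alternatives, no minimum fold could not lose a call. Leaving out a library of the other genotype acted only on the shared spread and the genes tested.

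*Gpd2* fell less, by 0.37 in WT and 0.63 in *Txnip*-/- on the log2 scale (limma adjusted p = 0.0319 and 0.00191). The WT call was lost without RT WT replicate 1 (adjusted p = 0.0573), RT WT replicate 3 (0.105) or TN WT replicate 3 (0.126), and with no filter on low TPM (0.0539). *Dgat2* was called in *Txnip*-/- (−0.63 ± 0.18, limma adjusted p = 0.0122) and missed the threshold in WT (−0.19 ± 0.18, 95% interval −0.59 to 0.20, adjusted p = 0.387). The WT value was −0.38 under both upper-quartile normalization and median centring (limma adjusted p = 0.106 and 0.111). *Lpin1* was called in neither genotype (0.20 ± 0.20 in WT and −0.33 ± 0.20 in *Txnip*-/-), and without TN *Txnip*-/- replicate 3 its fall in *Txnip*-/- was past the threshold (−0.58, adjusted p = 0.0183). With each library left out in turn that fall ran from −0.58 to −0.09 (limma adjusted p up to 0.698). Under the same scalings *Lpin1* was at 0.01 in WT by either, and at −0.49 and −0.52 in *Txnip*-/-, not past the threshold. *Aqp7* was at 0.16 in both genotypes, not past the threshold, and this sign turned under upper-quartile normalization and median centring (−0.02 in WT by either, −0.01 and −0.03 in *Txnip*-/-).

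**Figure D4:**
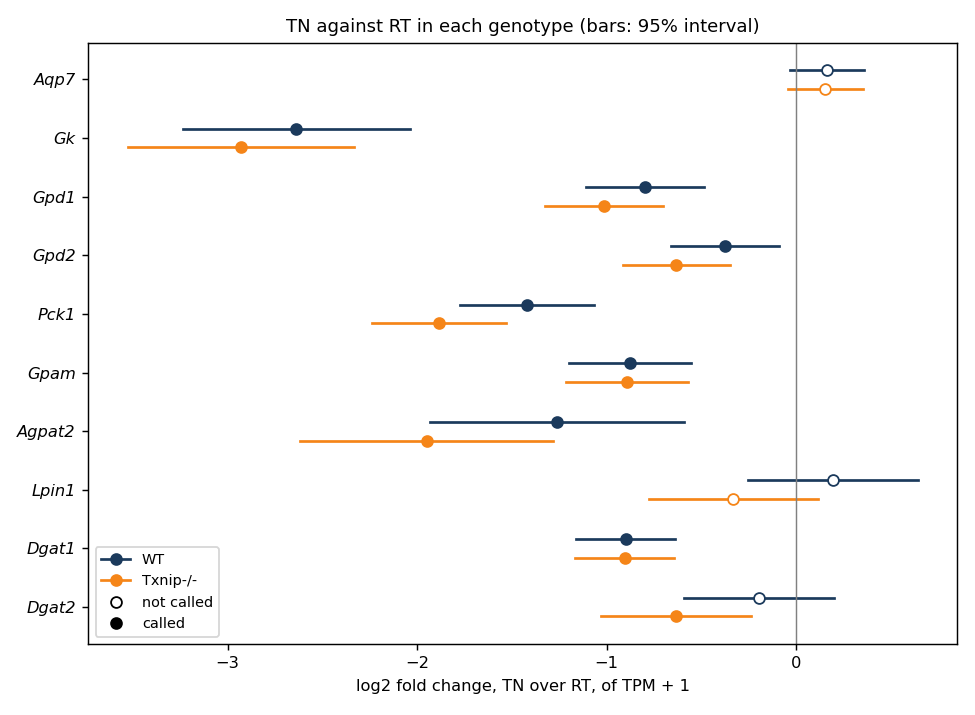
Log2 fold change of TN over RT for the 10 genes in WT and *Txnip*-/- on the scale of TPM + 1, with 95% intervals from all 12 libraries (n = 3 per group), filled where called. *Gk* lies furthest from 0 (−2.64 and −2.93), *Aqp7* and *Lpin1* are called in neither genotype, and *Aqp7* changes sign under other scalings.

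Whether the genotype difference itself changed with temperature was tested as an interaction on all 12 libraries, and none of the 10 genes passed it. Only 0.00801% of the 12486 genes, which is *Txnip* alone, passed that test with limma, and 0 of the 10 genes had an unadjusted p under 0.05. All 10 estimates were negative, that is, the TN difference was the lower, with a median of −0.27 against −0.02 over all genes, of which 54% had a negative estimate. These signs were not stable for 4 of the 10 genes. Under upper-quartile normalization those of *Aqp7*, *Gpam* and *Dgat1* were positive (0.01, 0.01 and 0.02), and of the 12 libraries left out in turn 7 turned the sign of *Aqp7*, 5 that of *Gpam* and 5 that of *Dgat1*. That of *Gk* turned to 0.10 without RT *Txnip*-/- replicate 2. Those furthest from 0 were *Agpat2* (−0.69, 95% interval −1.64 to 0.26), *Lpin1* (−0.53, −1.16 to 0.11), *Pck1* (−0.47, −0.97 to 0.03) and *Dgat2* (−0.44, −0.999 to 0.12), with limma adjusted p between 0.423 and 0.537. Their order is not fixed, as with 1 library left out they ranged from −1.03 to −0.39 for *Agpat2*, −0.77 to −0.28 for *Lpin1*, −0.64 to −0.35 for *Pck1* and −0.69 to −0.23 for *Dgat2*. *Agpat2*, *Lpin1* and *Dgat2* were furthest from 0 without TN *Txnip*-/- replicate 3 and nearest to 0 without TN *Txnip*-/- replicate 2. *Gk*, called at TN and not at RT, had an interaction of −0.29 with an interval of −1.14 to 0.56. The call of *Gk* and *Pck1* at TN and not at RT therefore does not show that their genotype difference changed with temperature.

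The order of the 10 genes by TPM kept its ends and changed in the middle. *Gpd1* was the highest in every group, with 1842 ± 346.8 TPM at the least (TN *Txnip*-/-, SD, n = 3) and 3688 ± 342.9 TPM at the most (RT *Txnip*-/-), and *Gk* the lowest, from 6.50 ± 0.620 to 91.7 ± 16.7 TPM. *Pck1* stood above *Dgat2* at RT in both genotypes and below it at TN, with ranges that overlapped in TN *Txnip*-/- but not in the other 3 groups. *Agpat2* stood above *Gpd2* at RT without overlap, and the pair overlapped in both TN groups. *Dgat1* stood above *Gpam*, *Lpin1* and *Aqp7* at RT, whereas at TN both *Lpin1* and *Aqp7* had a higher mean than *Dgat1*. At RT, *Gpam* and *Lpin1* overlapped, as did the lower of the pair and *Aqp7*. At TN, *Aqp7* overlapped *Dgat1* in WT, and in *Txnip*-/- it overlapped *Lpin1*, which overlapped *Dgat1*.

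Of the 26 other genes of the same steps, 21 reached a mean of 1 TPM, and *Aqp3*, *Aqp9*, *Gpat2*, *Mogat2* and *Acsl6* did not. At RT 0 of 21 were called, where 0.726% of all genes were lower and 0.76% higher, and 4 had an unadjusted p under 0.05 by limma, as did 1921 of all 11980. At TN 1 of 21 was lower and 1 higher in *Txnip*-/-, where 2.17% and 6.49% of all genes were, and 9 had an unadjusted p under 0.05, as did 3306 of all 12891. Counts this small are not read as a result about these genes. The median log2 fold change was −0.07 against −0.27 for the 10 genes. The lower one was *Acsl1*, which activates fatty acids with coenzyme A, at 599.3, 425.9 and 472.4 TPM in TN WT, against 310.1, 291.4 and 368.1 TPM in TN *Txnip*-/- (log2 fold change −0.62 ± 0.14, limma adjusted p = 0.0327). The higher one was *Pck2*, the mitochondrial form of Pck1, at 18.5, 22.5 and 20.04 TPM in TN WT, against 28.8, 33.7 and 25.7 TPM in TN *Txnip*-/- (0.51 ± 0.11, adjusted p = 0.0308). Neither pair of groups overlapped, and neither gene was called without TN WT replicate 1 or 3 or TN *Txnip*-/- replicate 1 or 2, or with no filter on low TPM. Exons of *Acsl1* overlap *Gm45244*, and those of *Pck2* overlap *Gm10876*, on the other strand.

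With *Pck1* lower and *Pck2* higher, the ratio of their TPM was 64.8, 35.6 and 55.5 in TN WT and 22.8, 17.1 and 29.0 in TN *Txnip*-/-, without overlap. At RT it was 456.2, 360.4 and 380.6 in WT and 228, 366.2 and 184.4 in *Txnip*-/-, where *Txnip*-/- replicate 2 lay within the WT range. *Pck2* also was higher at TN than at RT, by 1.43 in WT and 1.49 in *Txnip*-/- on the log2 scale. This ratio, and that of *Gpat4* to *Gpam* given below, were chosen after the values were seen.

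**Figure D5:**
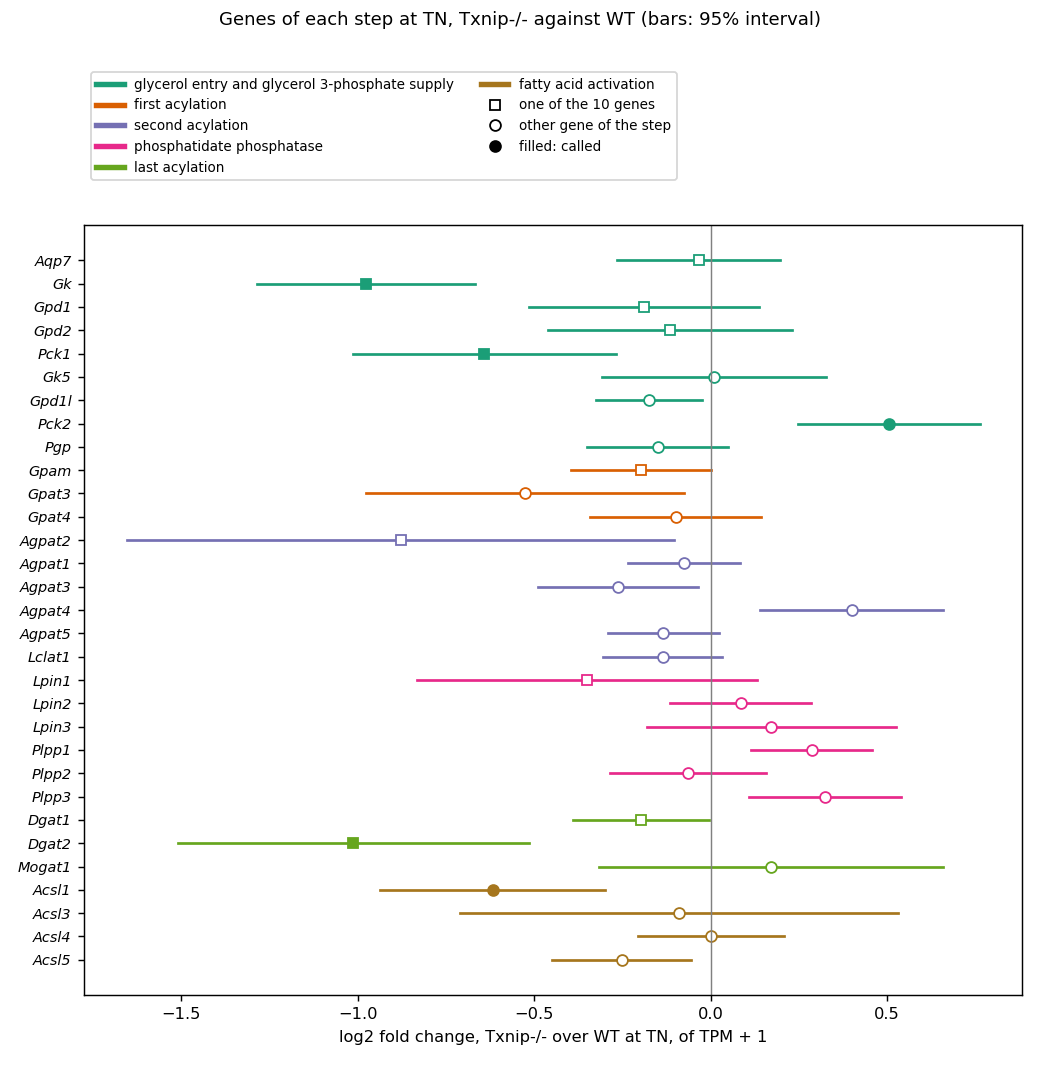
Log2 fold change of *Txnip*-/- over WT at TN for the 10 genes (squares) and 21 other genes of the same steps (circles), coloured by step, on the scale of TPM + 1, with 95% intervals (n = 3 per group). Filled symbols are called, which are *Gk*, *Pck1*, *Dgat2* and *Acsl1* to the left of 0 and *Pck2* to the right.

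Of the other gene of each step most abundant over the 4 groups together, *Acsl1* was called by genotype and the other 5 were not. In TN *Txnip*-/- by itself, *Pck2*, called as given above, stood above *Pgp* (29.4 against 24.1 TPM on average). *Gpat4*, a first-step acyltransferase of the endoplasmic reticulum, averaged 124.9 ± 17.5 TPM in WT and 115.9 ± 7.63 TPM in *Txnip*-/- at TN (SD, n = 3), and exceeded *Gpam* by 1.31 to 1.89 times in every library. *Agpat3*, an acyltransferase of the second step, was at 213.5 ± 29.1 and 176.7 ± 4.85 TPM (limma adjusted p = 0.137). *Plpp3*, a lipid phosphate phosphatase, was at 27.6 ± 2.995 and 34.8 ± 2.39 TPM (adjusted p = 0.0696), *Pgp*, which removes the phosphate of glycerol 3-phosphate, at 26.8 ± 1.64 and 24.1 ± 2.30 TPM (0.332), and *Mogat1*, which acylates monoacylglycerol, at 3.49 ± 1.11 and 4.05 ± 1.14 TPM (0.673). *Agpat4*, a scarcer gene of the second step named after its values were seen, was at 1.79, 2.42 and 1.80 TPM in TN WT and 2.86, 2.98 and 2.99 TPM in TN *Txnip*-/-, above WT without overlap but short of the threshold (log2 difference 0.40 ± 0.11, limma adjusted p = 0.0647). From RT to TN, *Gpat4* fell by 0.96 in WT and 0.91 in *Txnip*-/- on the log2 scale, and *Acsl1* by 1.14 and 1.58. Over all 21 genes, 6 were lower and 4 higher at TN in WT, where 6.39% of all genes were lower and 31.4% higher. In *Txnip*-/-, 5 were lower and 5 higher, against 8.27% and 30.9% of all genes, and without TN *Txnip*-/- replicate 3 the 10 calls became 6.

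By step, the genotype calls at TN fell on 3 of 9 tested genes of glycerol entry and glycerol 3-phosphate supply (2 lower and 1 higher), on 1 of 3 of the last acylation and on 1 of 4 of fatty acid activation. None of 3 genes of the first acylation, 6 of the second and 6 of the phosphatidate phosphatase step was called at either temperature. With 2.17% of all genes lower and 6.49% higher at TN, 0 calls in steps of 3 to 6 genes are not read as a result. Between temperatures, where 6.39% of all genes were lower and 31.4% higher in WT, and 8.27% and 30.9% in *Txnip*-/-, the phosphatase step had 0 of 6 calls in WT and 1 of 6 in *Txnip*-/- (*Lpin3*, higher by 0.53 ± 0.16, limma adjusted p = 0.0153, named after its value was seen).

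The genes whose log2(TPM + 1) followed that of *Gk* most closely over the 12 libraries, among 8903 genes with a mean of at least 5 TPM, were *Otop1*, a proton channel (Pearson r = 0.98), *Acsl1* (0.98) and *Prelid3b* (0.98). *Otop1* averaged 140.5, 125.4, 65.2 and 49.4 TPM and *Prelid3b* 195.6, 180.9, 120.0 and 90.9 TPM in WT and *Txnip*-/- at RT and then at TN, the same order of groups as *Gk*. Those nearest to *Dgat2* were *Cs*, the citrate synthase of the tricarboxylic acid cycle (r = 0.95), *Msrb2*, a mitochondrial methionine sulfoxide reductase (0.95), and *Afg3l2*, a protease subunit of the mitochondrial inner membrane (0.94). *Cs* averaged 1349, 1189, 1259 and 993.9 TPM and *Msrb2* 47.2, 39.4, 42.7 and 25.9 TPM in the same order of groups. As these genes were picked for their likeness, their levels are a description. Among the 10 genes, *Gk* correlated with *Gpam* (r = 0.97), *Pck1* (0.97), *Gpd1* (0.94), *Dgat1* (0.93) and *Agpat2* (0.91), less with *Dgat2* (0.61) and little with *Lpin1* (0.20), and *Aqp7* was negatively correlated with all 9 others (−0.73 to −0.29). These values describe 12 libraries that share 4 group means.

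The losses of *Gk*, *Pck1* and *Dgat2* at TN went with lower brown adipocyte markers and with the higher macrophage and fibroblast markers given above, and the part of these in the results was not tested. None of the 5 adipocyte markers was called at TN, but their summed TPM (15520 to 17000 in TN WT and 15390 to 17190 in TN *Txnip*-/-) is mostly *Fabp4*, at 13060 TPM on average in TN WT. Singly, *Plin1* was at 0.822-fold in TN *Txnip*-/- without overlap (limma adjusted p = 0.112) and *Cidec* at 0.791-fold with overlap (adjusted p = 0.172), while *Fabp4*, *Lipe* and *Adipoq* were at 1.02-fold, 0.986-fold and 1.14-fold. At RT, the lower *Dgat2* went with the higher skeletal muscle markers, with the 2 of 6 macrophage markers that were higher and with the lower *Cox7a1* among the brown adipocyte markers. Of the adipocyte markers, *Plin1* at 0.861-fold and *Cidec* at 0.767-fold were below WT without overlap at RT but not called (limma adjusted p = 0.119 and 0.0913), and the part of these markers was not tested either.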

How the data were processed

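RNA-seq of interscapular BAT from 12 mice in 4 groups of 3 was used. Per the labels and methods, poly-A RNA was sequenced as single-end reads, aligned to mm10 with STAR 2.7.5a and counted over exons with HOMER 4.11.1, with 1 transcript kept per gene. The authors deposited TPM for all libraries, whose listed genes sum to 55.38% to 57.55% of the total to which TPM are scaled. They also deposited log2-scale values of the 6 libraries of each temperature, by a transform that is not named, with their own log2 fold changes and p-values, which were not used. The deposited transcript differed between the TPM and log2 tables for 3 of the 10 genes (*Gk*, *Gpam* and *Lpin1*). No counts were used, so counting error was not computed and the spread between mice sets the precision. Depth was 29.93 to 47.44 reads per library in units of 1e6, and libraries of a group had r = 0.9854 to 0.9934 across 12486 genes.

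Genes that averaged 1 TPM or more were tested on log2(TPM + 1) with limma 3.58.1 in R 4.3.3 (empirical Bayes with a trend, Benjamini-Hochberg adjustment over all genes tested). *Txnip*-/- and WT were compared on the 6 libraries of each temperature. TN against RT and the interaction used all 12 libraries and 4 group means. Calls needed an adjusted p under 0.05 and a fold change under 0.8 or over its reciprocal, the interaction an adjusted p under 0.05 alone. An exact permutation test of 3 against 3 cannot go below 0.1. Since log2(TPM + 1) was used, fold changes of low genes are understated. The pipeline was tested on simulated data.

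The 10 genes, the wider list and the cell type markers were chosen with earlier results of these data known. Named were all 10 genes, *Txnip*, of the 26 wider genes those called by genotype and the most abundant of each step over the 4 groups together, and the 3 genes most like *Gk* and *Dgat2*, the pair with the smallest adjusted p at TN. Alternatives were log2(TPM + 0.1), no filter, upper-quartile normalization, median centring, the replicate number as a block, each library left out, all 12 libraries in 1 fit, the authors' log2 values, no minimum fold and the libraries of 1 genotype. No minimum fold used the main fit with a looser rule, so it could not lose a call. Coordinates are those of the deposited tables on mm10. Overlaps were read from the gene annotation, and figures drawn with matplotlib 3.10.9.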

Additional observations from a re-analysis of the deposited data

Results flagged for a closer look

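In 2 genes of the wider list, every *Txnip*-/- library lay on one side of the WT mean at RT and on the other side at TN, and neither passed the adjusted threshold of the interaction test. How many of all genes meet this rule was not counted, so it is not read as a result about these genes. Other genes of the list had mean differences of opposite sign without every library agreeing, such as *Mogat1*, with an interaction of 0.78 ± 0.29 on the log2 scale (SE, limma adjusted p = 0.322). *Pgp*, which removes the phosphate of glycerol 3-phosphate, was higher in every RT *Txnip*-/- library than the RT WT mean and lower in every TN *Txnip*-/- library than the TN WT mean, with an interaction of −0.45 ± 0.14 on the log2 scale (SE, limma adjusted p = 0.25). *Plpp3*, a lipid phosphate phosphatase, went the other way, with 0.48 ± 0.15 (limma adjusted p = 0.249). Its RT groups overlapped (28.0 to 35.4 TPM in WT and 26.5 to 31.9 TPM in *Txnip*-/-). RT *Txnip*-/- replicate 1, at 31.9 TPM, was almost at the RT WT mean of 32.0 TPM. The TN groups of *Pgp* overlapped too.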

How the results depend on the processing

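Over the 10 genes in 5 comparisons, 766 of the recomputed values kept their direction and their side of the threshold, 22 lost a call, 4 gained one and 38 changed sign. Without the filter on low TPM, the calls among the 10 genes were 0 at RT and 1 at TN, with 0 other genes of the same steps at TN and 44 (RT) and 621 (TN) of all genes, against 178 and 1116 with it. *Dgat2* then had adjusted p = 0.0628 at RT and 0.0796 at TN, *Pck1* 0.118 at TN and *Gpd2* 0.0539 for TN against RT in WT. With all 12 libraries in 1 fit, 0 of the 10 genes (*Dgat2*, adjusted p = 0.125) and 272 of all genes were called at RT. Whether the replicate numbers pair mice is not known. Between genotypes at RT, deviations from the group mean had r of 0.297, −0.022 and 0.21 for same-numbered libraries. Other RT pairs ran from −0.301 to 0.159. At TN, same-numbered libraries had r of 0.042, 0.023 and −0.036, and other pairs −0.083 to 0.07. With the number as a block, 100 of all genes were called at RT and 4 in the interaction (against 1), the 10 genes gave 1 call at RT, 4 at TN (*Agpat2* added, adjusted p = 0.044), 7 and 8 for temperature and 0 for the interaction, and the block changed no other call among them.

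With each library left out, the calls among the 10 genes were 0 to 1 at RT, 1 to 4 at TN, 6 to 7 for TN against RT in WT and 8 to 9 in *Txnip*-/-. Those among other genes of the same steps were 0 to 3 at TN and 6 to 12 for temperature in *Txnip*-/-, lowest without TN *Txnip*-/- replicate 3. Of all genes, 2 to 159 were called at RT, 456 to 1005 at TN and 1 to 6 in the interaction. The lost calls have fewer samples by construction.

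The sign changes were in *Gpd1*, *Aqp7*, *Gpd2*, *Gk*, *Gpam* and *Dgat1*. For *Gpd1* at RT they were −0.00614 (upper-quartile), −0.0001208 (median centring) and −0.01416 (authors' log2 values). For *Aqp7*, TN against RT was −0.02058 and −0.01823 in WT and −0.006912 and −0.03331 in *Txnip*-/- (upper-quartile and median centring). Under upper-quartile normalization the interaction was 0.01367 for *Aqp7*, 0.00819 for *Gpam* and 0.01897 for *Dgat1*. With libraries left out, the values were −0.06283 to 0.02739 (*Aqp7*) and −0.06025 to 0.1521 (*Gpd1*) at RT, −0.1339 to 0.02217 (*Aqp7*) and −0.251 to 0.02495 (*Gpd2*) at TN, and for the interaction −0.1087 to 0.04729 (*Aqp7*), −0.559 to 0.09915 (*Gk*), −0.163 to 0.1276 (*Gpam*) and −0.1597 to 0.1131 (*Dgat1*). TPM carry no counts, so depth limits for *Gk*, the lowest gene, were not computed.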
